A study of Homo sapiens with 8 samples.

Results

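The genes described here are 10 effector targets of the transcription factor ATF4, namely ASNS, GPT2, PCK2, CHAC1, SESN2, DDIT4, TRIB3, NUPR1, STC2 and VLDLR. They were found as the probe sets that the array annotation assigned to exactly 1 gene, that gene being one of the 10. This gave 13 probe sets for 9 of the genes, out of 41091 such probe sets for 19775 genes on the array. GPT2 had no such probe set and was not analysed here. ASNS, SESN2, STC2 and TRIB3 had 2 probe sets each and the other 5 genes had 1. All 9 genes passed the filter on dim signals through their brightest probe set.

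RNA came from Saos-2, an established human osteosarcoma cell line that the labels give as p53-null, so that all groups lack p53. The cells were treated with a compound the labels call Prima for 6 h (3 arrays) or 12 h (2 arrays, numbered 1 and 3), or were left untreated (3 arrays). PRIMA compounds are small molecules studied for restoring activity to mutant p53, and the series was designed to record the response of the transcriptome in cells without p53. The dose, any solvent control and whether replicates were separate cultures are not given in the sources used here, so that p-values cover the spread among these arrays alone, and that spread may be technical.

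ATF4 is the main transcription factor of the integrated stress response. Stresses such as amino acid shortage, unfolded proteins in the endoplasmic reticulum, haem shortage or double-stranded RNA activate kinases that phosphorylate the translation factor eIF2, which lowers general protein synthesis while letting ATF4 mRNA be translated. ATF4 then binds, often with a C/EBP protein as partner, to composite elements near genes of amino acid supply, redox balance and feedback control. The 9 genes measured here stand at the output end of that pathway, and several of them are also under other control, DDIT4, STC2 and VLDLR by low oxygen for example.

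The composite element was looked for in the promoters, to show the kind of site through which the genes are read out. The core searched was TGATGNAA, on both strands, in RefSeq windows of GRCh38.p14 that run from 250 bases before to 50 bases after a gene's start. It stood in 3.62% of all 35116 windows. Of the 10 genes, 8 had at least 1 window in the table, with 11 windows in all, and 2 of them held the core, ASNS and CHAC1. The stretches around both are given from 5′ to 3′ on the strand of the gene, with the core in capitals:
ASNS promoter, GRCh38.p14 chr7:97872439-97872506, minus strand: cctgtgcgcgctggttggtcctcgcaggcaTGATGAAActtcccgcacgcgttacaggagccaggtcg
CHAC1 promoter, GRCh38.p14 chr15:40953232-40953299, plus strand: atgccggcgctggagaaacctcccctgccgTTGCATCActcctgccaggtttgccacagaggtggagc
The ASNS core began 68 bases before the gene's start and lay in the direction of the gene, in 1 of the 2 ASNS windows. The CHAC1 core began 209 bases before the start and lay on the opposite strand, so that it reads TTNCATCA there. A match is a description of the letters and not of a bound site.

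The values are MAS5 signals, one number per probe set on a linear scale, with every array scaled to the same trimmed mean. In such bulk RNA, fewer cells of a kind and less RNA per cell cannot be told apart. The replicate 2 arrays stood apart, with a median signal of 47.5 at 6 h and 50.8 in untreated cells, against 14.2 to 24.9 on the other 6 arrays. Among those, medians were 21.8 to 24.9 for number 1 and 14.2 to 15.6 for number 3. The share of probe sets at or below the floor of 2.39 was at most 0.0714% for number 2. It was 6.27% to 7.88% for number 1 and 19.0% to 20.8% for number 3. The 3′ to 5′ signal ratio of the ACTB control probes, which becomes larger as RNA is degraded, stood at 1.73 for 6 h replicate 1, at 2.29 for 12 h replicate 1 and at 1.12 to 1.38 for the remaining arrays. For GAPDH that ratio was 0.978 on 6 h replicate 1 and lay between 0.927 and 1.04 on all 8 arrays, with 12 h replicate 1 the highest. Of 9 markers of the osteoblast lineage, 8 had a probe set of their own and all 8 were above the filter. RUNX2 was at 1411 to 2350, COL1A1 at 2764 to 4801, SPARC at 1319 to 2556, ALPL at 131 to 286 and SP7 at 88.8 to 272. The others were dimmer, with COL1A2 at 26.9 to 99.6, IBSP at 32.1 to 77.4 and SPP1 at 14.5 to 94.2. Of 4 leukocyte markers measured, 1 was above the filter (PTPRC, 0.473 to 80.6), and of 4 endothelial markers 1 (PECAM1, 13.7 to 142.9). Of 5 epithelial markers 3 were above it, EPCAM (26.0 to 245), KRT8 (25.6 to 52.7) and KRT18 (342 to 2064).

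Among the enzymes of amino acid and carbon supply, ASNS makes asparagine from aspartate and glutamine. Its signal was 214, 197 and 210.2 on the 6 h arrays and 281 and 336 on the 12 h arrays, against 215, 137 and 228 on the untreated arrays. Both 12 h arrays were above every 6 h and every untreated array, and the 6 h and untreated arrays overlapped. PCK2, the mitochondrial enzyme that makes phosphoenolpyruvate from oxaloacetate, had 140.3, 99.8 and 53.3 at 6 h and 94.0 and 78.8 at 12 h, against 70.5, 98.8 and 48.1 in untreated cells. All 3 groups overlapped, and the highest PCK2 signal was that of 6 h replicate 1.

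CHAC1 and SESN2 act in redox balance and nutrient sensing. CHAC1, which breaks down glutathione inside the cell, had 41.5, 22.1 and 19.0 at 6 h and 51.8 and 43.6 at 12 h, against 36.0, 43.0 and 4.99 in untreated cells. Both 12 h arrays were above all others, by a small margin over untreated replicate 2, and untreated replicate 3 was far below the rest. SESN2, a sestrin that restrains the kinase complex mTORC1 when leucine is short, had 85.2, 50.5 and 50.7 at 6 h and 111 and 78.0 at 12 h, against 63.6, 123 and 29.4 in untreated cells. The untreated arrays alone spanned the whole range of the other groups, so that SESN2 did not separate them.

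DDIT4, TRIB3 and NUPR1 are stress-induced regulators. DDIT4 (REDD1), an inhibitor of mTORC1, had 479.6, 116 and 131 at 6 h and 153 and 285 at 12 h, against 143, 187 and 149 in untreated cells. The high 6 h level came from replicate 1 alone, and the other 6 h arrays were below every untreated array. TRIB3, a pseudokinase that feeds back on ATF4 and its partner DDIT3, had 72.2, 153 and 40.3 at 6 h and 54.4 and 76.5 at 12 h, against 76.3, 68.0 and 43.1 in untreated cells. Here 6 h replicate 2 was high and the remaining 7 arrays were intermixed. NUPR1, a small chromatin-associated stress protein, had 26.7, 12.4 and 23.6 at 6 h and 59.1 and 33.8 at 12 h, against 34.7, 8.38 and 18.1 in untreated cells. Its 12 h arrays were above all 6 h arrays, but untreated replicate 1 lay above one of them.

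STC2 and VLDLR act in the secretory pathway and at the cell surface. STC2, a secreted glycoprotein hormone, had 706, 169 and 109 at 6 h and 178 and 136 at 12 h, against 112, 157 and 96.1 in untreated cells. The signal of 6 h replicate 1 stood far above all the other 7 arrays, which overlapped. VLDLR, the receptor for very low density lipoprotein and reelin, had 109, 316 and 253 at 6 h and 224 and 307 at 12 h, against 199, 285 and 289 in untreated cells. It was lowest on 6 h replicate 1, the array on which STC2, DDIT4 and PCK2 were highest, and its groups overlapped.

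**Figure D1:**
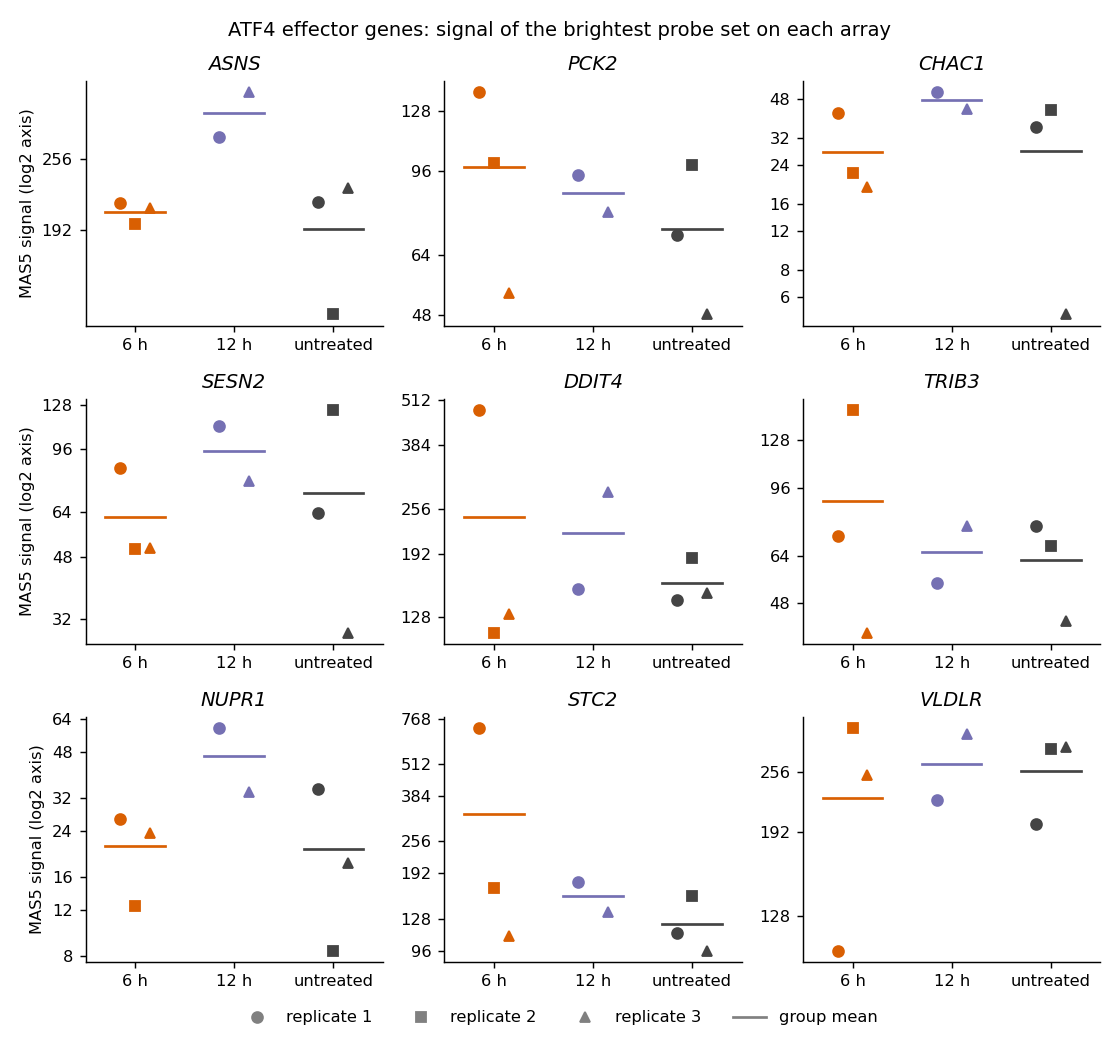
MAS5 signal (log2 axis) of the brightest probe set of each of the 9 genes on the 8 arrays, by group, with marker shape for the replicate number and a line at the group mean. ASNS and CHAC1 have both 12 h arrays above all untreated arrays, and STC2 and DDIT4 have 6 h replicate 1 (706 and 479.6) above all other arrays.

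After 6 h, no ATF4 effector gene stood clear of untreated cells. On the brightest probe sets, the high STC2 and DDIT4 levels came from 1 of the 3 arrays. For STC2, 6 h replicate 2 was also above every untreated array, at 169 against at most 157. On the other STC2 probe set that array stood at 209, against at most 131 in untreated cells. STC2 on 6 h replicate 3 was not above every untreated array on either probe set. Of the 9 genes, 7 had a log2 difference above 0 and 0 passed the test, and the median over the 9 was 0.29 against 0.02 over all 12063 genes tested. That median was 0.11 with a pseudocount of 32, 0.57 without both replicate 2 arrays, 0.57 without 6 h replicate 3 and 0.12 without untreated replicate 3. Across all genes 53% were above 0. The groups did not overlap for 0 of the 9 genes, where 2.03% of all genes had every 6 h array higher and 1.51% every 6 h array lower. STC2 had the greatest difference of the 9, 0.98 ± 0.53 (SE), with a signal of 328 ± 329 at 6 h and 122 ± 31.4 in untreated cells (SD, n = 3 each).

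The remaining differences at 6 h were 0.39 ± 0.88 (SE) for CHAC1, 0.38 ± 0.42 for PCK2, 0.33 ± 0.49 for TRIB3 and 0.29 ± 0.47 for DDIT4. They were 0.19 ± 0.85 for NUPR1, 0.13 ± 0.28 for ASNS, -0.027 ± 0.50 for SESN2 and -0.31 ± 0.37 for VLDLR. Each SE but that of STC2 was larger than the difference itself. With limma, 0% of all genes passed at an adjusted p under 0.05 (smallest adjusted p = 0.9999), while 79 genes had an unadjusted p under 0.05. The fit with the replicate number as a block also called 0 genes, and 493 had an unadjusted p under 0.05.

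Without 6 h replicate 1, the array with an ACTB ratio of 1.73 and a GAPDH ratio of 0.978, the STC2 difference was 0.19, that of DDIT4 was -0.36 and that of VLDLR was 0.15, and the median over the 9 genes was 0.07. On that array the part of RNA integrity in these values was not tested. STC2 exceeded the next highest array there by 1.99 on the log2 scale, and DDIT4 by 0.75. An excess of over 0.5 on that array was found for 2 of the 9 genes and for 4.39% of all genes tested, a measure chosen after the values were seen. The difference of TRIB3 rested on 6 h replicate 2 and was -0.17 without it.

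After 12 h, all 9 genes had a log2 difference above 0 as deposited, but 8 of 9 after quantile normalization, where VLDLR stood at -0.094. The median was 0.40 against 0.08 over all genes tested, of which 59.9% were above 0, and none of the 9 passed the test. ASNS averaged 309 ± 39.5 at 12 h (SD, n = 2), against an untreated average of 193 ± 49.7 (SD, n = 3). Its log2 difference was 0.70 ± 0.31 (SE), or 1.63-fold, with a 95% interval of 0.04 to 1.37 and a limma adjusted p of 0.9999. Without untreated replicate 2, its lowest array, the ASNS difference was 0.47 ± 0.28 (SE). CHAC1 averaged 47.7 ± 5.80 at 12 h (SD, n = 2), against an untreated average of 28.01 ± 20.2 (SD, n = 3), and differed by 1.27 ± 0.98 (SE). NUPR1 averaged 46.4 ± 17.9 at 12 h (SD, n = 2), against an untreated average of 20.4 ± 13.3 (SD, n = 3), and differed by 1.36 ± 0.95 (SE).

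ASNS and CHAC1 were the 2 of the 9 genes whose 12 h arrays were both above all untreated arrays, which held for 9.6% of all genes tested. For 0 of the 9 were both 12 h arrays below, against 4.89% of all genes. The 95% intervals of CHAC1 and NUPR1 ran from -0.85 to 3.38 and from -0.69 to 3.41, so that these arrays do not settle a direction for either. SESN2 differed by 0.60 ± 0.56 (SE), DDIT4 by 0.40 ± 0.52, STC2 by 0.39 ± 0.60 and PCK2 by 0.31 ± 0.47. TRIB3, at 0.09 ± 0.55, and VLDLR, at 0.05 ± 0.42, had the smallest differences of the 9, and their 95% intervals ran from -1.09 to 1.27 and from -0.85 to 0.94.

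Across the genome at 12 h, 0% of genes passed with limma (74 at an unadjusted p under 0.05, ASNS among them), and 0 genes in the fit with the block (262 at an unadjusted p under 0.05). The count of members above 0 was 6 of 9 without 12 h replicate 3. Without untreated replicate 3, the CHAC1 difference was 0.27 and the median over the 9 genes 0.23. Without untreated replicate 2, the lowest array for NUPR1, the NUPR1 difference was 0.83. That of CHAC1 was then 1.83, and the median over the 9 genes 0.56. Without 12 h replicate 1, on which CHAC1, NUPR1 and SESN2 were higher than on replicate 3 and the ACTB ratio was 2.29, all 9 genes were above 0 and their median was 0.35.

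**Figure D2:**
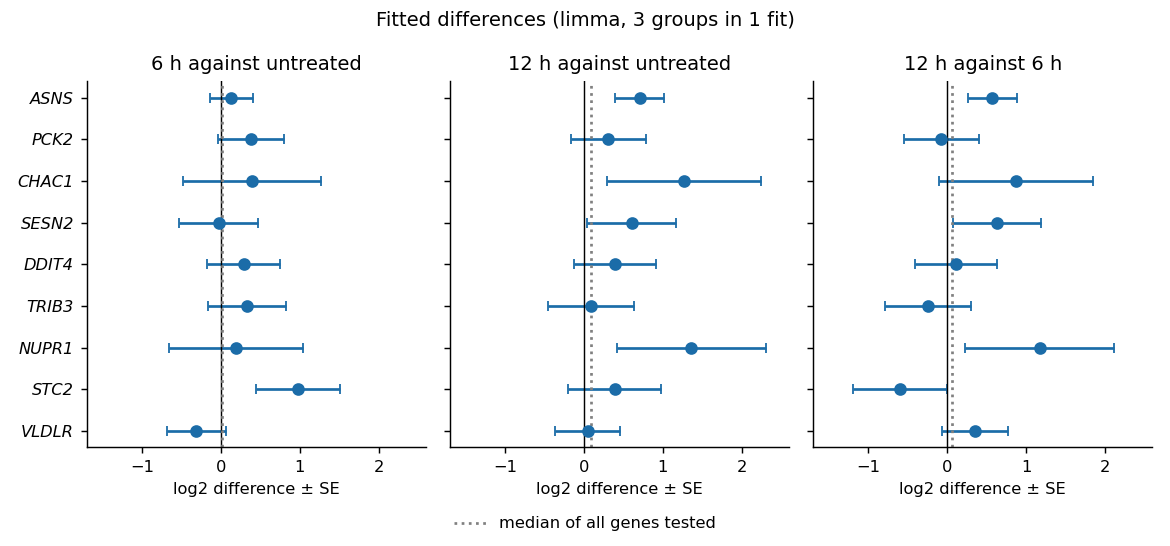
Log2 difference (x axis) of each of the 9 genes in the 3 comparisons, with error bars of 1 SE from limma and a dotted line at the median of all genes tested. At 12 h against untreated every point lies above 0 as deposited (VLDLR is at -0.094 after quantile normalization), from 0.05 for VLDLR to 1.36 for NUPR1, with SEs of 0.31 to 0.98.

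Set directly against 6 h, the 12 h arrays had higher mean levels of ASNS, CHAC1, NUPR1 and SESN2, and a lower mean level of STC2, none of which passed the test. NUPR1 stood 1.17 ± 0.95 (SE) higher at 12 h, CHAC1 0.87 ± 0.98, SESN2 0.63 ± 0.56, ASNS 0.57 ± 0.31 and VLDLR 0.35 ± 0.42, and DDIT4 differed by 0.11 ± 0.52. STC2 differed by -0.60 ± 0.60, TRIB3 by -0.24 ± 0.55 and PCK2 by -0.08 ± 0.47. Thus 6 of 9 genes were above 0 (7 after quantile normalization, where PCK2 turned positive, and 8 after centring arrays on their medians, where TRIB3 did too, but 5 with the mean of probe sets and 5 without 6 h replicate 3), against 57.2% of all genes. The median was 0.35 against 0.06 over all genes. It was 0.11 with the mean of probe sets and 0.59 without 6 h replicate 1. Without 12 h replicate 3 it was 0.13, against 0.11 over all genes.

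For ASNS, CHAC1 and NUPR1 both 12 h arrays were above all 3 of the 6 h arrays, 3 of the 9 genes, where 7.1% of all genes tested did so. The opposite order was found for 0 of the 9 and for 4.5% of all genes. None of the 9 passed with limma, and 0% of all genes did (smallest adjusted p = 0.99998, 88 genes at an unadjusted p under 0.05, and 0 and 297 with the block). STC2 stood at 0.20 and VLDLR at -0.11 without 6 h replicate 1, so that the sign of both rested on that array. Both 12 h comparisons use the same 12 h arrays, and both comparisons with untreated cells use the same untreated arrays.

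Arrays of numbers 2 and 3 tended to deviate together with others of their number, and those of number 1 only weakly. The deviations of 12 h replicate 1 correlated at 0.11 with those of untreated replicate 1, but at 0.33 with those of untreated replicate 2. Each gene was also read within pairs of the same number. In the 12 h pairs, 8 of 9 genes were above 0 in replicate 1 (57.2% of all genes tested) and 9 of 9 in replicate 3 (51.8% of all genes), with medians of 0.41 and 0.83 against 0.06 and 0.01 over all genes. ASNS differed by 0.38 and 0.56 in those pairs, NUPR1 by 0.77 and 0.90, SESN2 by 0.81 and 1.41, STC2 by 0.67 and 0.50, and PCK2 by 0.41 and 0.71. These values are from the brightest probe sets. The dimmer probe sets gave other values, with 0.29 and 0.04 for STC2 and 0.24 and 1.00 for SESN2. For ASNS the dimmer one gave 0 in both pairs, where the arrays compared were at the floor. CHAC1 differed by 0.52 and 3.13, the second value against the untreated array at 4.99. DDIT4 differed by 0.09 and 0.94, VLDLR by 0.17 and 0.09, and TRIB3 was the exception, with -0.49 and 0.83.

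In the 6 h pairs the members did not share a direction. Above 0 were 5 of 9 genes in replicate 1, 6 in replicate 2 and 5 in replicate 3, with medians of 0.20, 0.11 and 0.15. Of all genes tested, 52.7%, 52.8% and 51.3% were above 0 in those pairs, with medians of 0.037, 0.034 and 0.0079, so the members' counts lay near the background. STC2 was above 0 in all 3 pairs on its brightest probe set, but at 2.65, 0.11 and 0.19. The other STC2 probe set stood at 1.46, 0.67 and -0.10. PCK2 was above 0 in all 3 pairs, at 0.99, 0.01 and 0.15. On the brightest probe sets, CHAC1 and SESN2 changed sign between pairs together. They stood at 0.20 and 0.42 in replicate 1, -0.96 and -1.29 in replicate 2, and 1.93 and 0.79 in replicate 3. The other SESN2 probe set, at 0.40, 1.61 and -0.25, had the opposite sign to CHAC1 in replicates 2 and 3.

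With the replicate block fitted, the 12 h difference against untreated was 0.57 ± 0.23 (SE) for ASNS, 1.49 ± 0.76 for CHAC1, 0.79 ± 0.48 for SESN2 and 0.93 ± 0.56 for NUPR1. The median over the 9 genes was 0.47 against 0.04 over all genes, and no gene passed.

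**Figure D3:**
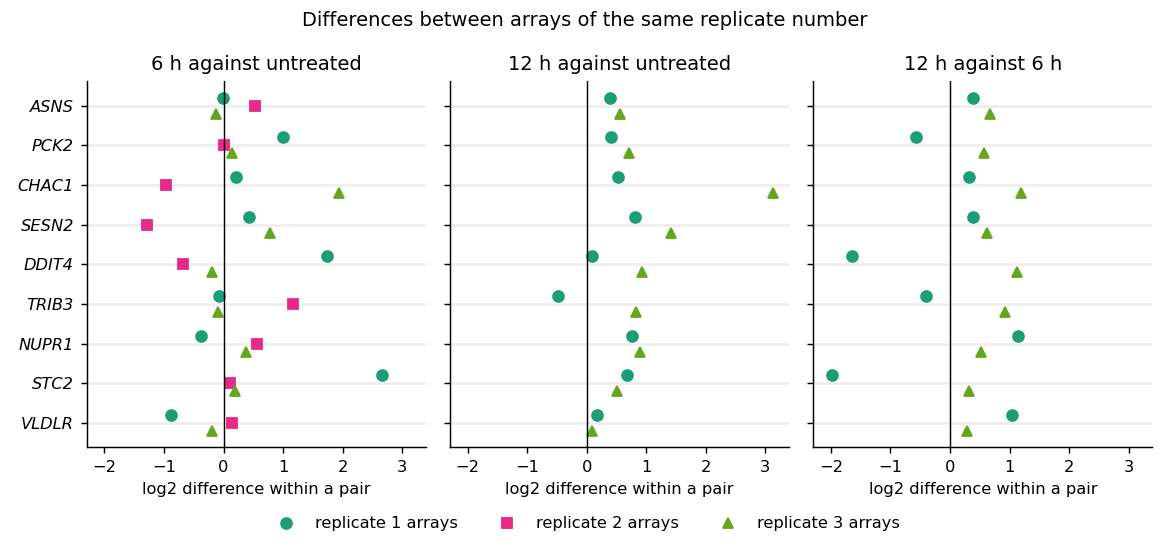
Log2 difference (x axis) between arrays that carry the same replicate number, for each of the 9 genes and each comparison, with marker shape and colour for the number. At 12 h against untreated 17 of the 18 points lie above 0, the exception being TRIB3 in replicate 1 (-0.49), while at 6 h the points of most genes lie on both sides of 0.

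Across the 8 arrays the members did not share 1 profile. Of the 36 pairs of genes, 24 had a Pearson correlation above 0, and the median was 0.15 (range -0.81 to 0.91, across 8 arrays that share replicate numbers, given as a description). On the brightest probe sets, CHAC1 and SESN2 were the most alike (0.91), followed by STC2 and PCK2 (0.85) and by ASNS and NUPR1 (0.81). STC2 and VLDLR were the most opposed (-0.81), and both had their extreme on 6 h replicate 1. Relative to each gene's own mean over the arrays, 7, 4 and 2 of the 9 genes were high on the 6 h arrays 1, 2 and 3 and 6 and 7 on the 12 h arrays, against 3, 6 and 2 on the untreated arrays. Untreated replicate 3 was the lowest array for CHAC1, SESN2, STC2 and PCK2.

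The second probe sets bore on 4 of the genes. The other STC2 probe set followed the brightest one across arrays (Pearson's r = 0.88 over 8 arrays, as a description), with 305, 209 and 82.1 at 6 h and 136 and 90.5 at 12 h, against 111, 131 and 88.0 in untreated cells. It again put 6 h replicate 1 highest, and 6 h replicate 2 was also above every untreated array, with 6 h replicate 3 below them all. Its log2 differences from untreated were 0.68 ± 0.44 (SE) at 6 h and 0.03 ± 0.50 at 12 h.

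The SESN2 probe sets did not follow each other (r = -0.13). The other one had 53.05, 28.6 and 26.8 at 6 h and 47.4 and 63.7 at 12 h, against 40.1, 9.35 and 31.9 in untreated cells. On it both 12 h arrays were above all untreated arrays, which they were not on the brightest probe set, and untreated replicate 2 was lowest where it had been highest. Of all genes tested, 9.6% had both 12 h arrays above all untreated arrays on their brightest probe set. The other SESN2 probe set differed from untreated by 1.26 ± 0.75 (SE) at 12 h, against 0.60 on the brightest.

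The TRIB3 probe sets followed each other weakly (r = 0.36). The other one had 51.8, 21.5 and 10.99 at 6 h and 24.4 and 26.1 at 12 h, against 41.5, 8.76 and 14.8 in untreated cells, and was highest on 6 h replicate 1 in place of replicate 2. Its differences from untreated were 0.40 ± 0.90 (SE) at 6 h and 0.53 ± 1.00 at 12 h. The second ASNS probe set was dim, at or below the floor on 5 of 8 arrays, and was not tested. Tested singly, 0 of 22653 probe sets passed in any of the 3 comparisons (148, 168 and 184 at an unadjusted p under 0.05).

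**Figure D4:**
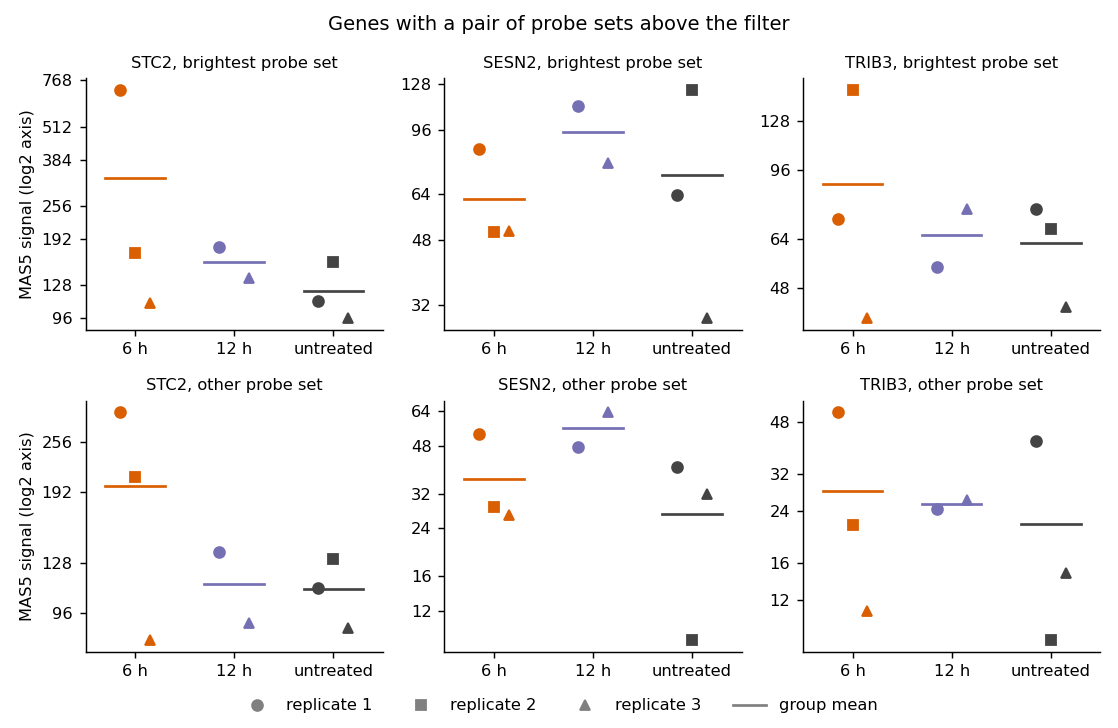
MAS5 signal (log2 axis) on the 8 arrays of both probe sets of STC2, SESN2 and TRIB3, by group, with marker shape for the replicate number and a line at the group mean. The STC2 pair places 6 h replicate 1 highest on both, while the SESN2 pair places untreated replicate 2 highest (123) on one and lowest (9.35) on the other.

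Other genes of the ATF4 pathway were read from 4 lists. Among all genes tested, 59.9% were above 0 at 12 h against untreated and 53% at 6 h. Upstream and beside the effectors, 7 of 8 stress response transcription factors and their regulators were above 0 at 12 h against untreated (median 0.42) and 6 of 8 at 6 h (median 0.16). ATF4 itself had 1210.3, 966 and 1233 at 6 h and 1464 and 1427 at 12 h, against 1155, 825 and 1179 in untreated cells. Both 12 h arrays were the highest of all 8. Of all genes tested, 9.6% had both above all untreated arrays and 7.1% above all 6 h arrays. ATF4 differed from untreated by 0.48 ± 0.26 (SE) at 12 h. CEBPG, a C/EBP partner of ATF4, differed by 0.54 ± 0.32 (SE) at 12 h, ATF3, a stress-induced repressor, by 0.68 ± 0.39, and PPP1R15A (GADD34), which directs dephosphorylation of eIF2, by 0.39 ± 0.36.

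Of 9 tested amino acid transporters, 9 were above 0 at 12 h (median 0.33) and 4 at 6 h (median -0.014), with the cystine carrier SLC7A11 at 0.85 ± 0.37 (SE) and the leucine carrier SLC7A5 at 0.49 ± 0.32. Of 12 cytosolic tRNA synthetases, 11 were above 0 at 12 h (median 0.26) and 9 at 6 h (median 0.08), with CARS1 at 0.55 ± 0.30 and VARS1 at 0.51 ± 0.33. Of 9 enzymes of serine and one-carbon synthesis, 6 were above 0 at 12 h (median 0.13) and 2 at 6 h (median -0.09). The share of all genes tested above 0 was 59.9% at 12 h and 53% at 6 h. At 12 h the serine synthesis enzymes PSAT1 and PSPH stood at 0.31 ± 0.26 and 0.36 ± 0.50. None of the genes of these lists passed the test in either direction in any of the 3 comparisons. With the replicate block, the 12 h medians were 0.34 for the factors, 0.26 for the transporters and 0.15 for the tRNA synthetases. For the serine and one-carbon enzymes the median with the block was 0.004, against 0.04 over all genes.

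Lists outside the pathway were read for contrast, because some members also answer to low oxygen or to p53. Of 10 hypoxia genes, 5 were above 0 at 12 h (median 0.05) and 4 at 6 h (median -0.11), with NDRG1, a stress-responsive protein, at 0.63 ± 0.35 (SE) and BNIP3, of mitochondrial autophagy, at -0.28 ± 0.26. On 6 h replicate 1, where STC2 and DDIT4 were highest, the median hypoxia gene lay 0.11 below its own mean over the arrays. The median member lay 0.33 above, and the median of all genes tested 0.07 above. Whether low oxygen played a part in these values was not tested. Of 7 p53 target genes, 4 were above 0 at 12 h (median 0.06) and 5 at 6 h (median 0.08). For both lists the share of all genes tested above 0 was 59.9% at 12 h and 53% at 6 h. CDKN1A, the cell cycle inhibitor p21, was 283 on 6 h replicate 1 and 112 to 153 on the other 7 arrays, so that it too was highest on that array. Again 0 genes of these lists passed. With the replicate block, the 12 h median was 0.10 for the hypoxia genes and -0.02 for the p53 target genes.

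**Figure D5:**
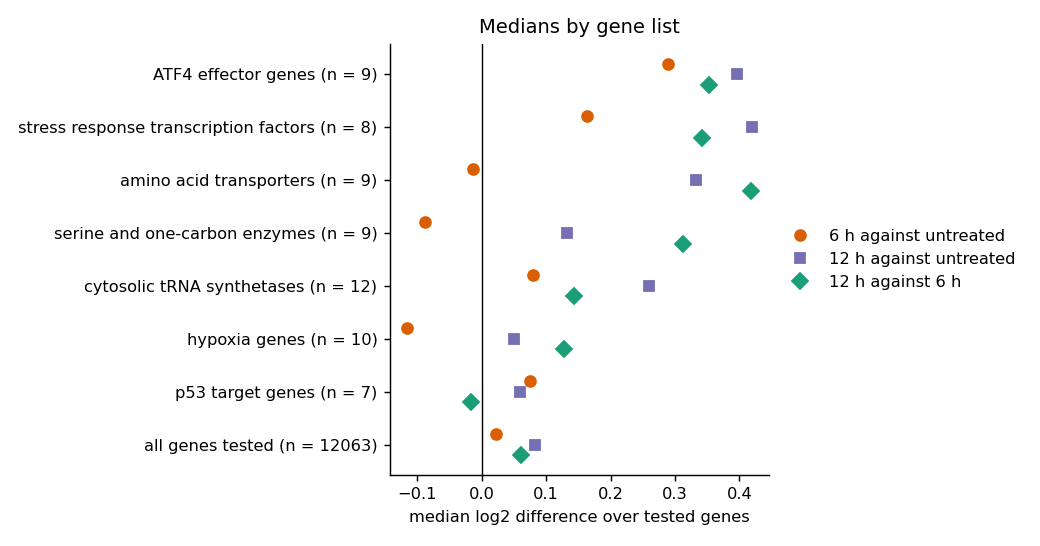
Median log2 difference (x axis) over the tested genes of each list, for the 3 comparisons, with the number of tested genes in brackets and all genes tested in the bottom row. The ATF4 effector genes stand at 0.29, 0.40 and 0.35, and all genes at 0.02, 0.08 and 0.06.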

How the data were processed

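RNA of 8 Saos-2 samples was measured on Affymetrix arrays, 1 array per sample, and groups and replicate numbers came from the labels. The authors deposited 1 intensity per probe set, on a linear scale. It came from MAS5, per the submitters' processing notes, whose settings are not stated in them. That method sets each array to 1 level (trimmed mean 100.01 on each), so a shift of all RNA would not show. The number of arrays limits the precision. A total of 62 control probe sets was left out. Probe sets were named from the platform annotation (41091 with 1 gene, 1801 with several, 11721 unlisted). No 2 arrays shared more than 1 identical value.

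Signals under the 10th percentile (2.39) were raised to it before log2, which understates changes of dim genes. Each gene was represented by its brightest probe set. Genes with a mean log2 signal over the median of all probe sets (4.22) were tested, 12063 in number, with limma 3.58.1 in R 4.3.3 (lmFit, eBayes with trend, 3 groups in 1 fit, two-sided, Benjamini-Hochberg over all genes, threshold 0.05). The fit was checked on simulated data. The 10 genes, the lists, written from textbook knowledge, and the rule for named genes (all members, up to 4 genes per list with the smallest p at 12 h, and the 5 genes most alike) were chosen with earlier results of these data known, so no test over the members was made. Of the genes that the rule named, some appear only in their list's counts.

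Deviations from group means correlated at 0.11 to 0.64 across genes in the 7 same-numbered pairs of arrays, and at -0.58 to 0.33 in the other 14. The pairs of number 1 stood at 0.11 to 0.16, and those of numbers 2 and 3 at 0.49 to 0.64. Part of this is built in, because deviations within a group sum to 0. With 2 arrays at 12 h, their deviations mirror each other, so the values of those arrays are not separate evidence. Arrays of 1 number were treated as pairs, though the labels give only the number. Repeats used quantile normalization, median centring, a pseudocount of 32, no filter, the mean of a gene's probe sets, single probe sets, the replicate block, and arrays left out.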

Additional observations from a re-analysis of the deposited data

How the results depend on the processing

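No gene passed the threshold in any comparison under any repeat run (counts of 0 throughout, with the replicate block and with each array left out too). With the smallest adjusted p at 0.9999 in the 6 h comparison, these counts of 0 say nothing about how stable a member's difference is. Leaving aside repeats that gave the same value as before (such as one without an array the comparison does not use), 123 of 138 member differences kept their sign with no single array left out, and 120 of 144 did with 1 array left out. With arrays centred on their medians, the median difference of all genes at 12 h against untreated was 0.66, where it is 0.083 as deposited, and it took the members' median with it, to 0.98 (and to 0.94 for 12 h against 6 h). Relative to all genes the members' median at 12 h was 0.31 higher as deposited, 0.31 after centring and 0.35 after quantile normalization. Leaving out 1 array gave members' medians of 0.07 to 0.57 at 6 h, 0.23 to 0.57 at 12 h and 0.13 to 0.59 for 12 h against 6 h.

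The signs that turned are these, and the cause was not tested. With the mean of probe sets, ASNS stood at -0.027 at 12 h and -0.27 for 12 h against 6 h, and SESN2 at 0.28 at 6 h. Alone, the second ASNS probe set stood at -0.76 at 12 h against untreated and -1.12 for 12 h against 6 h. Its signal was above the floor only on 6 h replicate 1 (5.15), 6 h replicate 2 (11.3) and untreated replicate 2 (11.5). Without both replicate 2 arrays, the 6 h differences were -0.063 for ASNS, 0.60 for SESN2 and -0.089 for TRIB3, and for 12 h against 6 h DDIT4 was -0.26 and TRIB3 0.26. For 12 h against 6 h, the block gave -0.017 for DDIT4, 0.048 for TRIB3 and 0.085 for PCK2, median centring 0.34 for TRIB3 and 0.51 for PCK2, and quantile normalization 0.052 for PCK2. Quantile normalization gave -0.094 for VLDLR at 12 h against untreated.

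With 1 array left out, 6 h differences ran from -0.10 to 0.27 for ASNS, -0.60 to 0.95 for CHAC1, -0.56 to 0.48 for SESN2, -0.36 to 0.66 for DDIT4, -0.62 to 0.15 for VLDLR, -0.17 to 0.79 for TRIB3 and -0.34 to 0.69 for NUPR1. At 12 h they ran from -0.052 to 0.85 for DDIT4, -0.18 to 0.27 for VLDLR and -0.16 to 0.33 for TRIB3. For 12 h against 6 h they ran from -0.34 to 0.76 for DDIT4, -1.15 to 0.20 for STC2, -0.11 to 0.66 for VLDLR, -0.71 to 0.26 for TRIB3 and -0.46 to 0.24 for PCK2. Where this left a single 12 h array, that array was assumed to vary like the other groups.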

Other observations

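The 5 genes whose log2 signal was most like the mean profile of the ATF4 effector genes over the 8 arrays were BLOC1S3, a subunit of a complex that forms lysosome-related organelles (Pearson's r = 0.95, Spearman's rho = 0.93), ZBTB7B, a zinc finger transcription factor (0.91 and 0.95), POLDIP3, a DNA polymerase delta interacting protein (0.91 and 0.90), SLX4IP, which binds the nuclease scaffold SLX4 (0.90 and 0.95), and HADH, a mitochondrial enzyme of fatty acid oxidation (0.89 and 0.74). They are the top of 12054 genes ranked over only 8 arrays, which share replicate numbers, so the values are a description and no p is given. ZBTB7B had 84.8, 23.9 and 25.3 at 6 h and 52.9 and 37.8 at 12 h, against 33.5, 38.7 and 15.6 in untreated cells. Like the mean of the members, it was highest on 6 h replicate 1 and lowest on untreated replicate 3.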
